A study of Homo sapiens with 95 samples.

Results

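The NADPH-producing enzymes described here are 6 genes, PGLS, PGD, TKT, TALDO1, ME1 and IDH1, chosen by symbol from the 27978 genes that the count files list, of which 22764 had a read. All 6 were found and all 6 passed the filter on low counts in every comparison. They were measured in 95 samples of AALE cells, an immortalized human bronchial epithelial cell line, by sparse full length (SFL) sequencing, a highly multiplexed RNA-seq protocol that depletes ribosomal RNA and pools 96 barcoded libraries. The samples covered 8 genotypes crossed with 4 treatments, with 3 samples in each of 31 combinations and 2 samples in FGFR1 cells under cigarette smoke condensate. FAT1 and CDKN2A cells were CRISPR knockouts, and their control was cells given the Cas9-EGFP plasmid without a guide RNA (GFP). NRF2 (gene NFE2L2), FGFR1, NRG1 and PIK3CA cells overexpressed that gene, and their control carried an empty vector with the reporter HcRed. Confluent cells in 24-well plates received cigarette smoke condensate (CSC) at 24 μg/ml, the polycyclic hydrocarbon BaP (benzo(a)pyrene) at 173 μM, or NNK, a nitrosamine of tobacco, at 490 μM. DMSO, in which such compounds are dissolved, was the control treatment. The length of exposure, and whether a line was 1 clone or a pool, are not given in the sources used here.

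NADPH is the electron donor that cells use to reduce oxidized glutathione and thioredoxin, to run quinone reductases, and to build fatty acids and sterols. In the oxidative branch of the pentose phosphate pathway PGLS hydrolyses a sugar lactone, and PGD makes NADPH while producing ribulose 5-phosphate. TKT (transketolase) and TALDO1 (transaldolase) work in the non-oxidative branch, which returns pentoses to glycolytic sugars, so that PGLS, TKT and TALDO1 serve NADPH production without themselves reducing NADP+. ME1, the cytosolic malic enzyme, makes NADPH while turning malate into pyruvate, and IDH1, the cytosolic and peroxisomal isocitrate dehydrogenase, makes it while forming 2-oxoglutarate. Several of these genes are textbook targets of NRF2, the transcription factor that binds antioxidant response elements when oxidants or electrophiles release it from KEAP1. BaP and other polycyclic hydrocarbons of smoke also activate the aryl hydrocarbon receptor (AhR), which binds xenobiotic response elements.

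The promoters of the members are shown because the study overexpressed NRF2 and used AhR-activating chemicals. RefSeq promoter windows (250 bases before the start, build GRCh38.p14, placed on GRCh37 by exact match) were found for all 6 members, with 7 windows because IDH1 has a further start. The letters TGACNNNGC, the core of the antioxidant response element, were searched on both strands, and stood in 10.9% of all 34788 promoter windows of that length (3797 windows) and in those of 3 of the 6 members. The letters below are written 5′ to 3′ on the strand of the gene, with the match in capitals where there is one.
PGD, chr1:10458871-10459120, plus strand: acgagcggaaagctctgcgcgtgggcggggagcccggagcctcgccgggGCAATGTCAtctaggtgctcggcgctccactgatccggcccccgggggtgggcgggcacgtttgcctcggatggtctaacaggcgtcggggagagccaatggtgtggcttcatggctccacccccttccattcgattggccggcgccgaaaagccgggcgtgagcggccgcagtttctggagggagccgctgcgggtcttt
ME1, chr6:84140771-84141020, minus strand: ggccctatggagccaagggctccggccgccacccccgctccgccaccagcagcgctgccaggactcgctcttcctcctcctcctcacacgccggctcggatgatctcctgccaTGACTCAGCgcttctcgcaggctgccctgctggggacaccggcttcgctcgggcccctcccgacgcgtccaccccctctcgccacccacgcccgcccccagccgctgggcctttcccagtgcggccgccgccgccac
IDH1, further start, chr2:209119796-209120045, minus strand: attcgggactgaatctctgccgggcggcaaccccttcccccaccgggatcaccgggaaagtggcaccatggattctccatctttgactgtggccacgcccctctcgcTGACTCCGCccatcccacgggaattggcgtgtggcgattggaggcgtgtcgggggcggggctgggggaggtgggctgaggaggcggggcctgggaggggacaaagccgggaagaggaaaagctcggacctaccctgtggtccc
TKT, chr3:53290039-53290288, minus strand: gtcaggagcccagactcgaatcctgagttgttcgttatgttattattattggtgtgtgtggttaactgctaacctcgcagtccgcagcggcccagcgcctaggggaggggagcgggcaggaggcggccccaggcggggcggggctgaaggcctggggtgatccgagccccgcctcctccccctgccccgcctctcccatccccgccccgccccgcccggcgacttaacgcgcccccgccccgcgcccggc
TALDO1, chr11:747214-747463, plus strand: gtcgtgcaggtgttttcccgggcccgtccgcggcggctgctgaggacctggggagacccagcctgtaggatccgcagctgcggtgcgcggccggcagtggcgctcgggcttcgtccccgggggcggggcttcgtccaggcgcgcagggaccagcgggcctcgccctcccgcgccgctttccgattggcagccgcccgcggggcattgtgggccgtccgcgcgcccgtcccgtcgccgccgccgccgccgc

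Counted backwards from the start, the match began at base -137 in ME1, at -143 in the further IDH1 window, and at -201 in PGD, where it reads on the opposite strand. ME1 alone of the members held TGACTCAGC, a stricter spelling of the first with every letter fixed, which stood in 0.46% of all windows (160). The TKT and TALDO1 windows printed above, the other IDH1 window and the PGLS window held no match to these letters. GCGTG, the core of the xenobiotic response element, stood in 32.2% of all windows (11187) and in those of PGD, ME1 and IDH1. A match is a description of letters in this window and says nothing of binding. Each window is placed by a RefSeq start, whereas the gene spans that follow come from another annotation. The PGD window and both IDH1 windows lie inside those spans, downstream of the start that the span gives. For PGD and IDH1 the letters before that start were not searched. On GRCh37 PGD spans chr1:10458649-10480568 (13 exons), TKT chr3:53258728-53290068 (14 exons), TALDO1 chr11:747415-765012 (8 exons), ME1 chr6:83920121-84140770 (14 exons), IDH1 chr2:209100953-209130798 (10 exons) and PGLS chr19:17622445-17632097 (5 exons).

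Counted reads per sample ran from 287446 to 2116383, with a median of 1051107 in DMSO, 825587 in CSC, 836087 in BaP and 753702 in NNK. Levels are given in CPM, the usual unit of a gene's reads relative to all reads of its library, with library sizes scaled by TMM. The targeted genes moved as the labels say. FAT1 was at 66.5 to 129 CPM in FAT1 cells against 260 to 451 in GFP, CDKN2A at 35.1 to 66.8 against 79.1 to 147, and NFE2L2 at 1317 to 1785 in NRF2 cells against 191 to 247 in HcRed. FGFR1, NRG1 and PIK3CA were higher in every sample of their lines than in every HcRed sample. Basal epithelial markers were high (median KRT5 3080 CPM, TP63 192 CPM), while CD3E was at 0 and PTPRC, PECAM1, SFTPC, SCGB1A1 and FOXJ1 had medians of 0. The summed level of the 11 markers of other cell types, mostly COL1A1 and CD68, was 17.4 to 46.1 CPM in DMSO, 36.7 to 71.6 in CSC, 18.7 to 77.7 in BaP and 19.2 to 61.5 in NNK, and its part in the results was not tested. In 5 libraries of other lines NRG1 stood above 100 CPM (up to 373), namely CDKN2A DMSO replicate 3, FGFR1 DMSO replicates 2 and 3, and NRF2 CSC replicates 2 and 3. NRF2 CSC replicate 1, at 76.9 CPM, was kept. Some results that rest on the 5 libraries are also given without them. The values of the chemicals against DMSO over all genotypes, and of the interaction tests, are given only with them. In bulk RNA, fewer cells of a type and less RNA per cell cannot be told apart.

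The treatments also differed in how a gene's level depended on the base composition of its transcript. The trend of each sample's levels, relative to the mean over all samples, on transcript GC content was -0.387 to -0.0914 log2 per 10 percentage points of GC in the 24 DMSO samples. It was -0.0109 to 0.218 in CSC, -0.0944 to 0.224 in BaP and -0.0679 to 0.237 in NNK, so that CSC and NNK samples did not overlap the DMSO samples. The members span a wide range of composition, from 39.3% GC in the ME1 transcript and 41.8% in IDH1 through 50.8% in PGD, 53.6% in TALDO1 and 58.0% in TKT to 65.9% in PGLS, against a median of 48.4% over all genes with a value. For the members, the chemicals are therefore compared with DMSO over all genotypes as counted and again with the trend removed. The trend removed was that of each sample on GC content and length. The further gene lists are compared as counted, and with the trend removed only where that is stated. Within lines many of the calls that changed are named. Removing the trend would also remove a biological response that follows GC content, and the 2 cannot be told apart here.

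**Figure D1:**
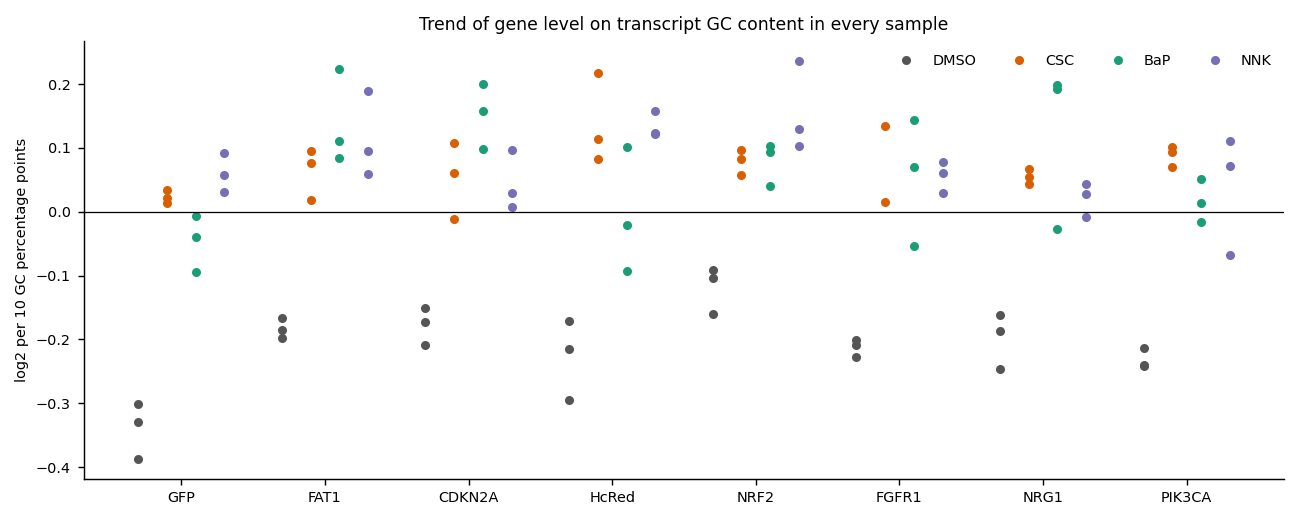
Trend of gene level on transcript GC content in each of the 95 samples (log2 per 10 percentage points of GC), by genotype along the horizontal axis and by treatment in colour, with 1 point per sample. The DMSO samples lie between -0.387 and -0.0914, and the GFP DMSO samples are the lowest, between -0.387 and -0.301.

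Per kilobase of transcript, TKT was the most abundant of the 6 members in the 24 DMSO samples, at 95.8 to 207 CPM per kb with a median of 145. IDH1 (median 93.6), PGD (86.0) and TALDO1 (82.2) followed, and their ranges overlapped widely. ME1 had a median of 29.4 CPM per kb and reached 69.9, while PGLS was lowest at 9.15 to 28.2 with a median of 18.5. These are levels between genes, and they rest on annotated transcript lengths. PGLS values come from only 9 to 72 reads per sample, against 187 to 1345 reads for TKT, and carry the widest errors of the 6 genes.

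**Figure D2:**
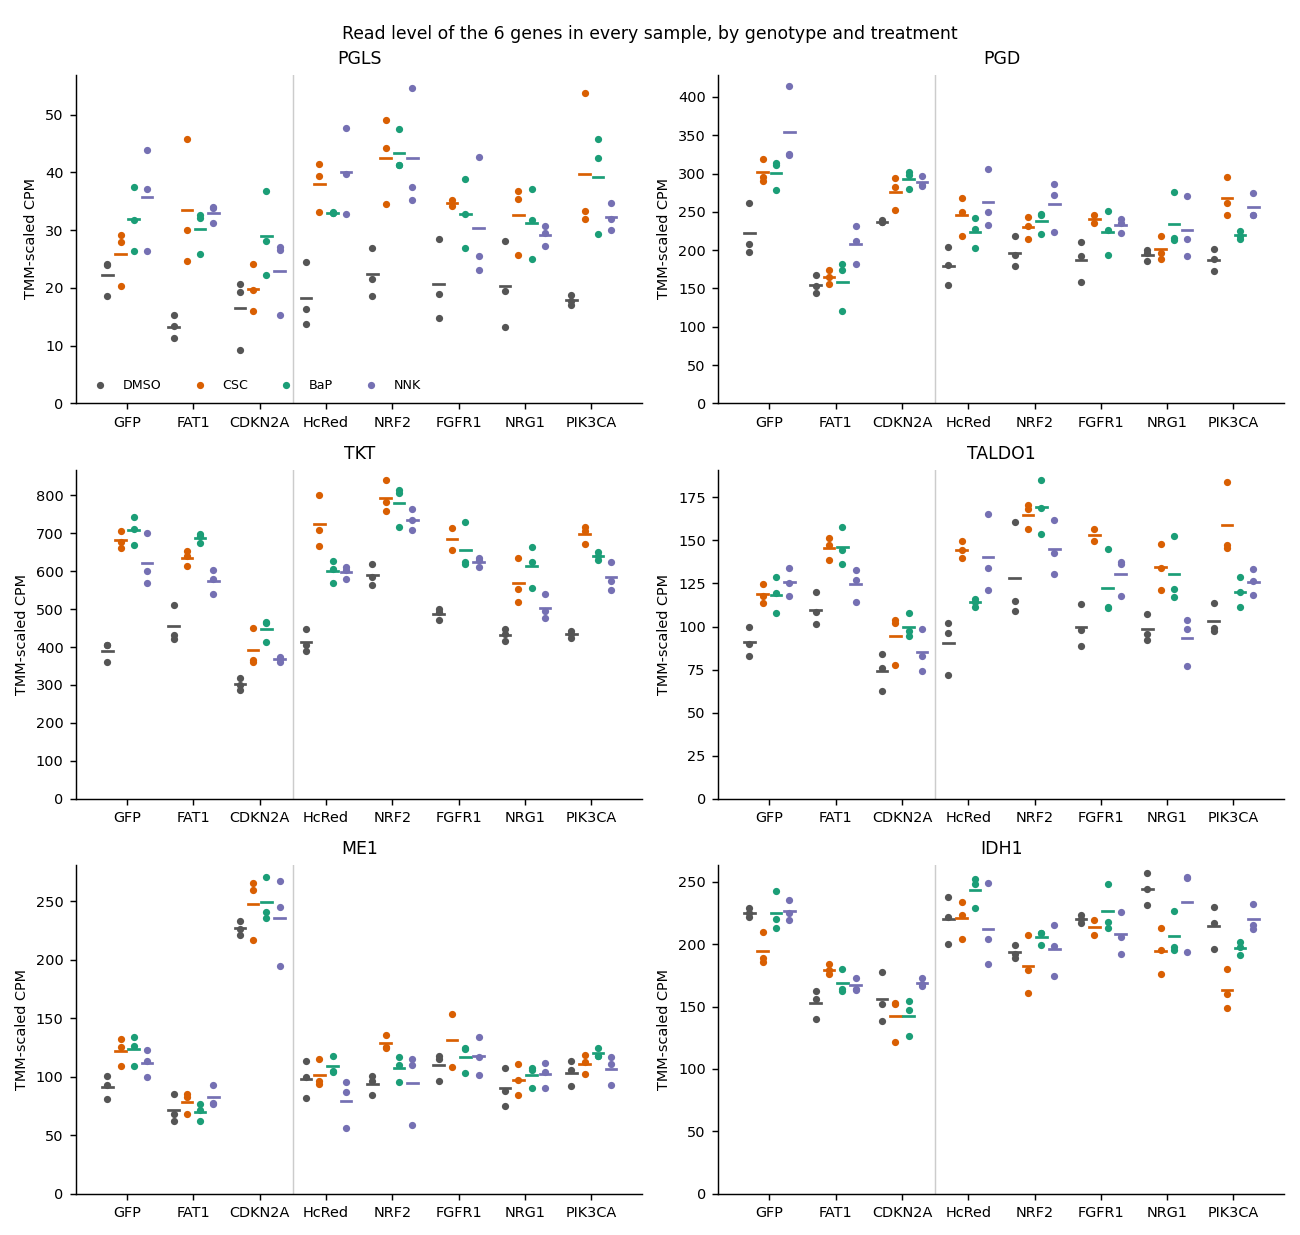
TMM-scaled CPM of PGLS, PGD, TKT, TALDO1, ME1 and IDH1 in each of the 95 samples, by genotype along the horizontal axis and by treatment in colour; each point is a sample and each short bar the mean of its combination. ME1 in CDKN2A cells, at 195 to 270 CPM, lies above every sample of the other lines, and TKT in CDKN2A cells lies below the other lines in each treatment.

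Knockout of CDKN2A, which encodes inhibitors of the cell cycle, went with the largest change of any member between lines. In DMSO, ME1 stood at 233, 221 and 226 CPM in CDKN2A cells and at 81.2, 101 and 93.0 CPM in GFP cells. The groups did not overlap, and the level was 2.43-fold higher (log2 fold change 1.28, SE 0.11, adjusted p = 1.47e-16, limma-voom, n = 3 in each). Another 3 members were lower in the same comparison. TKT was at 287, 300 and 318 CPM against 360, 406 and 405 in GFP, with no overlap (log2 fold change -0.40, SE 0.073, adjusted p = 6.19e-06). IDH1 was at 152, 177 and 138 CPM against 225, 229 and 222, again with no overlap (-0.57, SE 0.096, adjusted p = 1.18e-06). TALDO1, at 62.5, 84.1 and 75.8 CPM against 83.1, 99.9 and 89.9, overlapped in its samples and was near the threshold (-0.34, SE 0.14, adjusted p = 0.0432). PGD, at 236 to 239 CPM against 197 to 261, gave 0.08 (SE 0.089, adjusted p = 0.508), and PGLS gave -0.47 (SE 0.28, adjusted p = 0.187).
These 4 of 6 members passed the test beside 37.2% of all 14540 genes tested. The TALDO1 call was lost when CDKN2A DMSO replicate 1 or 3 or GFP DMSO replicate 2 or 3 was left out (adjusted p between 0.0615 and 0.253), and without the NRG1-bearing CDKN2A replicate 3 the call stood for ME1, TKT and IDH1 alone. Trend removal left ME1 at 1.38, moved TKT to -0.59 and TALDO1 to -0.51, and brought PGLS past the threshold (-0.80, adjusted p = 0.015). The summed markers of other cell types were 38.7 to 46.1 CPM in these 3 CDKN2A samples and 17.4 to 24.8 in GFP, and their part was not tested.

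The same contrasts under the chemicals, added after the data had been seen, showed ME1 higher again and TKT and IDH1 lower again. ME1 was higher in CDKN2A than in GFP cells by 1.05 (SE 0.11, adjusted p = 5.27e-13) in CSC, 1.01 (SE 0.12, adjusted p = 1.79e-09) in BaP and 1.14 (SE 0.14, adjusted p = 8.28e-11) in NNK on the log2 scale. Over the 4 treatments the 12 CDKN2A samples held 195 to 270 CPM of ME1, with a median of 238, and the 83 samples of the other lines held 56.1 to 154, with a median of 104. In no treatment did an ME1 value of another line reach the lowest CDKN2A value. TKT was lower by -0.75 in CSC, -0.67 in BaP and -0.74 in NNK (adjusted p = 6.16e-14, 1.15e-10 and 3.26e-13), and its CDKN2A samples lay below every sample of the other 7 lines in all 4 treatments. In NNK, for example, TKT was at 369, 374 and 361 CPM in CDKN2A cells and at 476 to 765 CPM in the rest. IDH1 was lower by -0.41, -0.64 and -0.44 in CSC, BaP and NNK (adjusted p = 0.00373, 2.21e-05 and 0.00185).

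Under CSC 3 of the 6 members passed (32.3% of all genes) and under BaP 3 (32.1%), ME1, TKT and IDH1 in each. Under NNK all 6 passed (28.1%), with TALDO1 at -0.64 (adjusted p = 0.000657), PGD at -0.27 (adjusted p = 0.0269) and PGLS at -0.74 (adjusted p = 0.0411). The PGD call in NNK was lost without CDKN2A replicate 1, 2 or 3 or GFP replicate 2 or 3 (adjusted p up to 0.227), and that of PGLS without CDKN2A replicate 3 or GFP replicate 1 or 3 (up to 0.437). The GFP samples stood apart for PGD in NNK, at 324 to 415 CPM against 182 to 306 in all other lines, and the CDKN2A samples, at 284, 286 and 296, lay within that range. The 4 contrasts use different samples of each line, but each rests on the same pair of lines.

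Knockout of FAT1, an atypical cadherin, went with lower PGD and IDH1. In DMSO, PGD was at 167, 154 and 143 CPM in FAT1 cells and at 197, 261 and 209 CPM in GFP cells, a log2 fold change of -0.53 (SE 0.11, adjusted p = 0.00014, n = 3 in each). IDH1 was at 162, 140 and 156 CPM against 225, 229 and 222 (-0.58, SE 0.098, adjusted p = 1.09e-05). Neither gene overlapped between the groups. Against HcRed, the other control line, the FAT1 samples overlapped for PGD (HcRed 154 to 204 CPM in DMSO) and not for IDH1 (HcRed 200 to 238). ME1, at 67.9, 85.2 and 62.5 CPM against 81.2, 101 and 93.0, overlapped and was near the threshold (-0.38, SE 0.14, adjusted p = 0.0398). PGLS, at 15.2, 13.3 and 11.3 CPM against 24.2, 24.0 and 18.6, did not overlap but missed the threshold by limma-voom (-0.72, SE 0.28, adjusted p = 0.0531), while edgeR gave 0.0439 and DESeq2 0.221. TKT gave 0.18 (SE 0.078, adjusted p = 0.0873) and TALDO1 0.23 (SE 0.13, adjusted p = 0.177), and in both genes every FAT1 sample was above every GFP sample. With the trend removed TKT gave 0.03 (adjusted p = 0.844, limma-voom) and TALDO1 0.10 (0.598).

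The 3 members past the threshold stand beside 26.3% of all 14266 genes tested. The ME1 call was lost without FAT1 DMSO replicate 1 or 3 or GFP DMSO replicate 2 or 3 (adjusted p between 0.104 and 0.156) and with the trend removed (-0.29, adjusted p = 0.119), while PGLS then passed (-1.04, adjusted p = 0.00426). The trend on GC content was -0.198 to -0.167 in the FAT1 DMSO samples and -0.387 to -0.301 in GFP DMSO.

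Under the chemicals, in contrasts added after the data had been seen, PGD was lower again. It was at 165, 155 and 175 CPM in FAT1 cells under CSC against 320, 295 and 290 in GFP, and the log2 fold change was -0.84 (SE 0.093, adjusted p = 2.74e-12). It was -0.90 in BaP (SE 0.12, adjusted p = 2.38e-09) and -0.72 in NNK (SE 0.11, adjusted p = 2.99e-08), where GFP lay above every other line and FAT1, at 182, 211 and 231 CPM, overlapped the rest. Under CSC and under BaP the FAT1 samples lay below every sample of the other 7 lines. ME1 was lower by -0.63 in CSC (adjusted p = 0.000129) and -0.77 in BaP (adjusted p = 0.000212), with -0.41 in NNK (adjusted p = 0.0809). IDH1 passed in BaP (-0.42, adjusted p = 0.00797) and NNK (-0.46, adjusted p = 0.00415) but gave -0.09 (SE 0.097, adjusted p = 0.543) in CSC, where its FAT1 samples were at 184, 176 and 179 CPM and its GFP samples at 209, 186 and 189.

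Members past the threshold numbered 3 in CSC (25.3% of all genes), 3 in BaP (21.4%) and 2 in NNK (17.2%). Among them TALDO1 in CSC (0.30, adjusted p = 0.0366) was lost without FAT1 replicate 1 or 2 or GFP replicate 1, 2 or 3 (adjusted p between 0.0546 and 0.11), and IDH1 in BaP without FAT1 replicate 1 (0.124) or GFP replicate 2 (0.0542). FAT1 and CDKN2A were compared with the same GFP samples, so their differences share that control.

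Overexpression of NRF2 went with higher TKT and TALDO1, 2 enzymes of the non-oxidative branch. In DMSO, TKT was at 619, 586 and 565 CPM in NRF2 cells and at 405, 448 and 390 CPM in HcRed cells. These 3 samples lay above all 21 DMSO samples of the other lines, which reached 511 CPM. The log2 fold change against HcRed was 0.52 (SE 0.070, adjusted p = 3.56e-08, n = 3 in each). TALDO1 was at 115, 160 and 109 CPM against 96.4, 102 and 71.8, without overlap (0.50, SE 0.14, adjusted p = 0.0153). The TALDO1 call rested on 2 libraries, since the adjusted p was 0.213 without NRF2 DMSO replicate 2 and 0.192 without HcRed DMSO replicate 3, and it was 0.062 with the trend removed and 0.222 by DESeq2. PGD (0.12, SE 0.11), ME1 (-0.09, SE 0.14), PGLS (0.36, SE 0.29) and IDH1 (-0.20, SE 0.099) did not pass the test, with adjusted p between 0.248 and 0.797. The 2 members called stand beside 7.16% of all 14035 genes tested.

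The promoter windows of TKT and TALDO1 printed above held no match to the antioxidant response element letters, which says only that these letters are not in these windows. ME1, whose window held the stricter spelling, was at 100, 84.5 and 96.5 CPM in NRF2 cells and 99.9, 82.1 and 113 in HcRed, and the samples of the lines interleaved. Of 8 genes kept as readouts of NRF2, NQO1 (0.50) and TXNRD1 (0.23), both enzymes that use NADPH, passed in DMSO by limma-voom, beside 7.16% of all genes. By edgeR 1 of the 8 passed and by DESeq2 0, and the median over the 8 was 0.11.

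**Figure D3:**
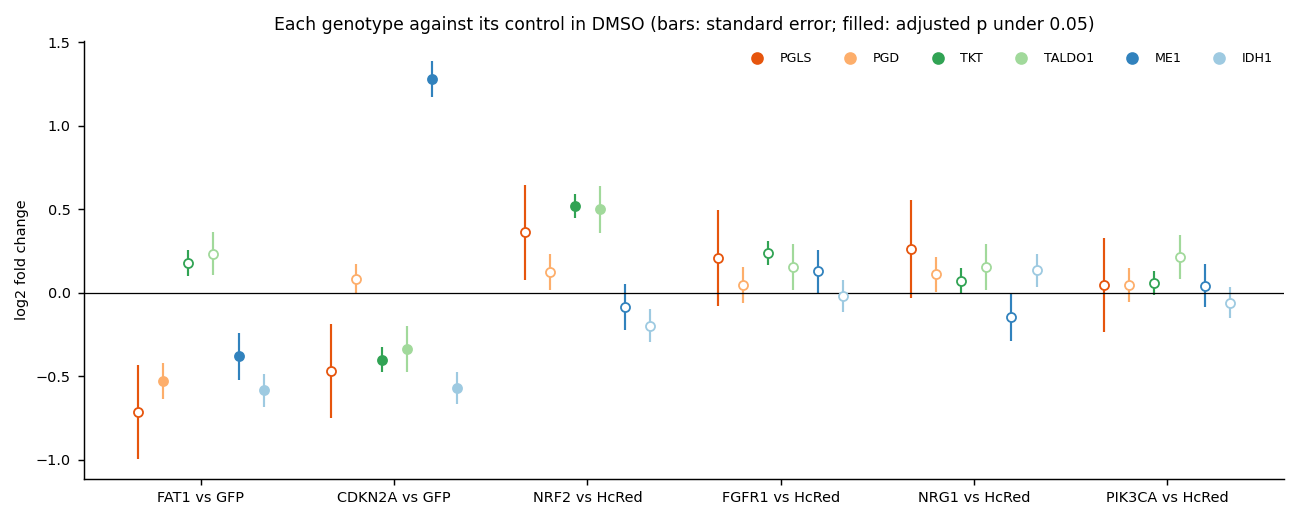
Log2 fold change of the 6 members in each line against its control in DMSO (FAT1 and CDKN2A against GFP, the other 4 lines against HcRed), with bars for the standard error and filled points for an adjusted p under 0.05 by limma-voom. ME1 in CDKN2A cells stands at 1.28, and TKT and TALDO1 in NRF2 cells at 0.52 and 0.50.

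NRF2 and HcRed cells were also compared under each chemical. Under BaP, TKT was at 807, 814 and 716 CPM against 606, 568 and 627 (0.39, SE 0.070, adjusted p = 2.47e-05) and TALDO1 at 185, 154 and 169 against 114, 116 and 111 (0.57, SE 0.12, adjusted p = 0.000476), and these were the 2 members called beside 7.25% of all genes. Under NNK, TKT was at 735, 765 and 709 CPM against 581, 612 and 604 (0.29, SE 0.072, adjusted p = 0.00454), the 1 member called beside 3.91% of all genes. That call was lost without HcRed NNK replicate 1 (adjusted p = 0.0785) or NRF2 NNK replicate 2 (0.0637), and DESeq2 gave 0.103. Under CSC, TKT was at 840, 759 and 784 CPM against 801, 709 and 667, with overlap (0.14, SE 0.069, adjusted p = 0.286). ME1 was at 125, 125 and 136 CPM against 115, 93.7 and 96.5, without overlap (0.36, SE 0.13, adjusted p = 0.102). No member passed under CSC (limma-voom) beside 4.87% of all genes, with 3 at an unadjusted p under 0.05. By edgeR and DESeq2 there were also 0 calls, with 2 and 1 members at that unadjusted level. NRF2 CSC replicates 2 and 3 held over 100 CPM of NRG1, and replicate 1 held 76.9, against 14.1 to 33.2 in HcRed CSC. A fit without replicates 2 and 3 leaves 1 sample in that arm, assumed to vary like HcRed. It does not show whether the count depends on them. With the trend removed TKT passed (0.25, adjusted p = 0.0105).

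Whether NRF2 changed the response to CSC was tested by the interaction over the 12 HcRed and NRF2 samples in DMSO and CSC. No member passed, beside 0.238% of all 14277 genes, while 2 members had an unadjusted p under 0.05 by limma-voom and by edgeR. TKT came closest, with the CSC response smaller in NRF2 cells by -0.38 on the log2 scale (SE 0.099, adjusted p = 0.0753), and ME1 gave 0.44 (SE 0.19, adjusted p = 0.405). With the trend removed the TKT value was -0.19.

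In FGFR1, NRG1 and PIK3CA cells in DMSO no member passed against HcRed, beside 1.86%, 2.04% and 8.6% of all genes. At an unadjusted p under 0.05 there was 1 member in FGFR1 by limma-voom, edgeR and DESeq2 alike, and 0 in NRG1 and PIK3CA by each of the 3 tools, which also made 0 calls. The FGFR1 member was TKT, at 492, 502 and 470 CPM against 405, 448 and 390 in HcRed, without overlap (0.24, SE 0.072, adjusted p = 0.0682). The remaining 17 log2 fold changes of these lines lay between -0.15 and 0.26. FGFR1 DMSO replicates 2 and 3 carried NRG1 reads. Without them the count was 0 with 1 sample left in that arm, assumed to vary like HcRed, which does not show whether the count depends on them.

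Over all genotypes, the treatments went with higher levels of most members. Under CSC, 6 of 6 members passed (55.1% of all 14384 genes) and 5 of them were higher (28% of all genes were called higher). TKT was at 287 to 619 CPM in DMSO with a median of 433, and at 360 to 840 in CSC with a median of 667. The ranges overlap because the lines differ, and within each of the 8 lines every CSC sample was above every DMSO sample. With genotype in the model the difference was 0.59 (SE 0.031, adjusted p = 2.22e-37, limma-voom). TALDO1 had a median of 98.5 CPM in DMSO and 146 in CSC (0.51, SE 0.049, adjusted p = 1.97e-17), and PGD 195 and 246 (0.32, SE 0.041, adjusted p = 2.35e-11). PGLS, with the fewest reads, had medians of 18.6 and 33.3 CPM and the largest difference (0.82, SE 0.094, adjusted p = 1.68e-13). ME1 had medians of 98.2 and 113 CPM (0.22, SE 0.050, adjusted p = 6.46e-05). IDH1 alone was lower, with medians of 217 and 184 CPM (-0.12, SE 0.039, adjusted p = 0.00639), and this call was lost without the samples numbered 2 (-0.09, adjusted p = 0.103).

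As counted, the median over the 6 members was 0.41 in CSC, 0.33 in BaP and 0.34 in NNK, beside 0.0035, 0.012 and 0.0012 over all genes tested. With the trend removed the medians over the members were 0.28, 0.26 and 0.27, and those over all genes are not given here.

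The CSC differences were ordered as the GC content of the transcripts is, from PGLS through TKT, TALDO1 and PGD to ME1 and IDH1, except that the last 2 changed places. Removing the trend narrowed them. TKT went from 0.59 to 0.28 (adjusted p = 1.57e-19), PGLS from 0.82 to 0.29 (adjusted p = 0.0104), TALDO1 from 0.51 to 0.35 and PGD from 0.32 to 0.25. ME1 went from 0.22 to 0.48 (adjusted p = 7.71e-17), and had the largest value of the 6. IDH1 changed sign, from -0.12 to 0.07 (SE 0.039, adjusted p = 0.149), and no longer passed. The share of all genes called was 32.1% with the trend removed. PGLS, PGD, TKT, TALDO1 and ME1 were thus higher with either processing, in a different order.

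**Figure D4:**
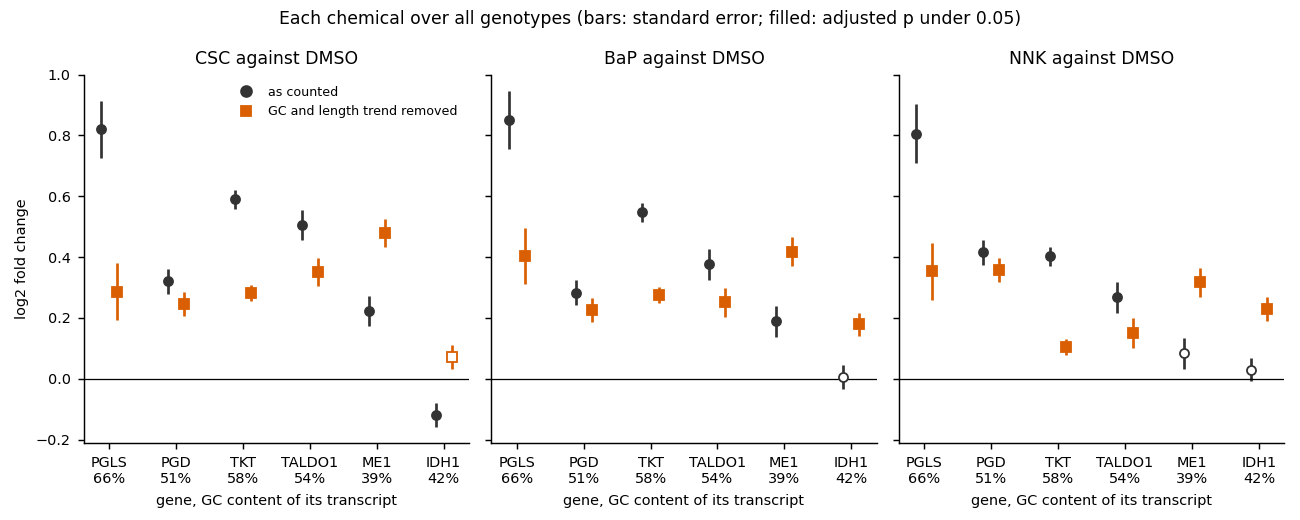
Log2 fold change of each member under CSC, BaP and NNK against DMSO over all genotypes, as counted (dark circles) and with the trend on GC content and length removed (orange squares), with bars for the standard error, filled symbols for an adjusted p under 0.05, and the GC content of each transcript on the horizontal axis. As counted under CSC the values run from 0.82 for PGLS to -0.12 for IDH1, and with the trend removed from 0.48 for ME1 to 0.07 for IDH1.

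BaP and NNK were compared with the same DMSO samples. Under BaP 5 of the 6 members passed, all higher (51% of all genes called, 26.1% higher). TKT had a median of 646 CPM (0.55, SE 0.031, adjusted p = 1.88e-33) and PGLS of 32.8 (0.85, SE 0.095, adjusted p = 6.2e-14), while TALDO1 gave 0.38, PGD 0.28 and ME1 0.19 (adjusted p = 0.000947). IDH1 did not pass (0.01, SE 0.039, adjusted p = 0.9). With the trend removed all 6 passed, TKT at 0.28, PGLS at 0.40, TALDO1 at 0.25, PGD at 0.23, ME1 at 0.42 and IDH1 at 0.18 (adjusted p = 0.000121), beside 23.8% of all genes. Without the samples numbered 1 the ME1 call as counted was lost (0.14, adjusted p = 0.0636).

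Under NNK 4 of the 6 members passed, all higher (51.8% of all genes called, 26.1% higher). PGD had a median of 248 CPM and a difference of 0.42 (SE 0.042, adjusted p = 3.97e-16). PGLS gave 0.81 (SE 0.096), TKT 0.40 (SE 0.033) and TALDO1 0.27 (SE 0.051), whereas ME1 gave 0.08 (adjusted p = 0.168) and IDH1 0.03 (adjusted p = 0.542). Trend removal left TKT at 0.10 (SE 0.027, adjusted p = 0.00208) while PGD gave 0.36, PGLS 0.35 and TALDO1 0.15 (adjusted p = 0.0209). ME1 then gave 0.32 (adjusted p = 8.29e-08) and IDH1 0.23 (adjusted p = 1.79e-06), so that all 6 passed beside 15% of all genes.

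Among the chemicals themselves, in contrasts added after the data had been seen, CSC and NNK differed in 4 members (23.7% of all genes). TKT was higher under CSC by 0.19 (SE 0.032, adjusted p = 9.97e-07), TALDO1 by 0.24 (SE 0.050, adjusted p = 9.46e-05) and ME1 by 0.14 (SE 0.051, adjusted p = 0.0338), while IDH1 was lower (-0.15, SE 0.039, adjusted p = 0.00208). The ME1 call was lost without the samples numbered 1 (adjusted p = 0.34) or 2 (0.112), or without the NRG1-bearing libraries (0.0997). BaP and NNK differed in 2 members (11.8% of all genes), with TKT higher under BaP by 0.14 (SE 0.032, adjusted p = 0.000421) and PGD lower (-0.13, SE 0.042, adjusted p = 0.0221). The PGD call was lost without the samples numbered 1 (adjusted p = 0.191) or 3 (0.155). CSC and BaP differed in IDH1 alone (16.5% of all genes), which was lower under CSC (-0.13, SE 0.039, adjusted p = 0.0153), and that call was lost without the samples numbered 2 (adjusted p = 0.487). With the trend removed these 7 differences kept their direction and passed, the TKT values becoming 0.18 for CSC against NNK and 0.17 for BaP against NNK, and PGD also passed between CSC and NNK (-0.11).

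Within the single lines, CSC went with higher TKT in all 8. The largest differences were in the control lines. In GFP cells TKT was at 360, 406 and 405 CPM in DMSO and at 678, 663 and 707 in CSC (0.79, SE 0.062, adjusted p = 8.14e-17). In HcRed cells it was at 405, 448 and 390 in DMSO and at 801, 709 and 667 in CSC (0.81, SE 0.077, adjusted p = 1.4e-14). In CDKN2A cells it went from 287, 300 and 318 to 360, 366 and 451 CPM (0.46, SE 0.085, adjusted p = 1.36e-05), and it remained below the other lines. The log2 fold change was 0.67 in PIK3CA, 0.55 in FAT1, 0.45 in FGFR1 and 0.43 in both NRF2 and NRG1 cells. After trend removal the TKT differences were 0.15 to 0.40, and those of FGFR1 (adjusted p = 0.336) and NRG1 (0.143) no longer passed.

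TALDO1 passed in 7 lines, all but CDKN2A, with 0.38 to 0.70, and in CDKN2A cells it gave 0.43 (adjusted p = 0.0534). After trend removal TALDO1 passed in FAT1, HcRed and PIK3CA cells, and its call was lost in GFP (0.18, adjusted p = 0.443), NRF2 (0.35, 0.0858), FGFR1 (0.38, 0.0665) and NRG1 cells (0.39, 0.0666). PGLS passed in FAT1 (1.29), HcRed (1.14), PIK3CA (1.05), NRF2 (0.94) and FGFR1 (0.78), for example from 15.2, 13.3 and 11.3 CPM in FAT1 cells in DMSO to 24.6, 45.9 and 30.0 in CSC. In no line did PGLS pass with the trend removed (adjusted p between 0.0783 and 0.899). PGD passed in PIK3CA (0.48), HcRed (0.45), GFP (0.44) and FGFR1 (0.34), and trend removal ended the call in FGFR1 (0.21, adjusted p = 0.335). ME1 passed in NRF2 (0.46, adjusted p = 0.0156) and GFP (0.40, adjusted p = 0.0082), and with the trend removed also in CDKN2A, FGFR1 and PIK3CA. IDH1 was lower in PIK3CA (-0.39, adjusted p = 0.00119), NRG1 (-0.31, adjusted p = 0.0346) and GFP (-0.23, adjusted p = 0.0491), where the trend removal left -0.19, -0.09 and 0.01, none of which passed.

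The members called numbered 5 in GFP (25% of all genes), 3 in FAT1 (12.7%), 1 in CDKN2A (11.2%), 4 in HcRed (23.8%), 4 in NRF2 (9.1%), 4 in FGFR1 (11.7%), 3 in NRG1 (13.9%) and 5 in PIK3CA (22.6%). With the trend removed they numbered 3, 3, 2, 3, 2, 1, 0 and 4 in the same order. The shares of all genes called were then 6.28%, 5.01%, 5.26%, 6.49%, 4.67%, 3.51%, 5.5% and 7.71%, again in that order. In FAT1 cells the 3 with the trend removed, all higher under CSC, were TKT, TALDO1 and a member not called there as counted. IDH1, lower under CSC in PIK3CA, NRG1 and GFP cells, was in FAT1 cells at 176 to 184 CPM in CSC and 140 to 162 in DMSO. Several calls rested on single libraries. In GFP cells IDH1 was lost without any of 5 libraries, ME1 without DMSO replicate 1, and TALDO1 without CSC replicate 2 or DMSO replicate 1 (adjusted p between 0.0598 and 0.242). In NRF2 cells ME1 was lost without CSC replicate 3 or DMSO replicate 2 and TALDO1 without any of 4 libraries (0.0666 to 0.167), and without CSC replicates 2 and 3, which leaves 1 CSC sample that is assumed to vary like the DMSO samples, TKT and PGLS were the 2 members called. In FGFR1 cells PGD and PGLS were lost without any of 4 libraries each (0.0567 to 0.24), and without the NRG1-bearing DMSO samples, which leaves 1 DMSO sample that is assumed to vary like the 2 CSC samples, TKT and TALDO1 were the 2 called. In NRG1 cells IDH1 was lost without any of 4 libraries and TALDO1 without either of 2 (0.0716 to 0.227).

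**Figure D5:**
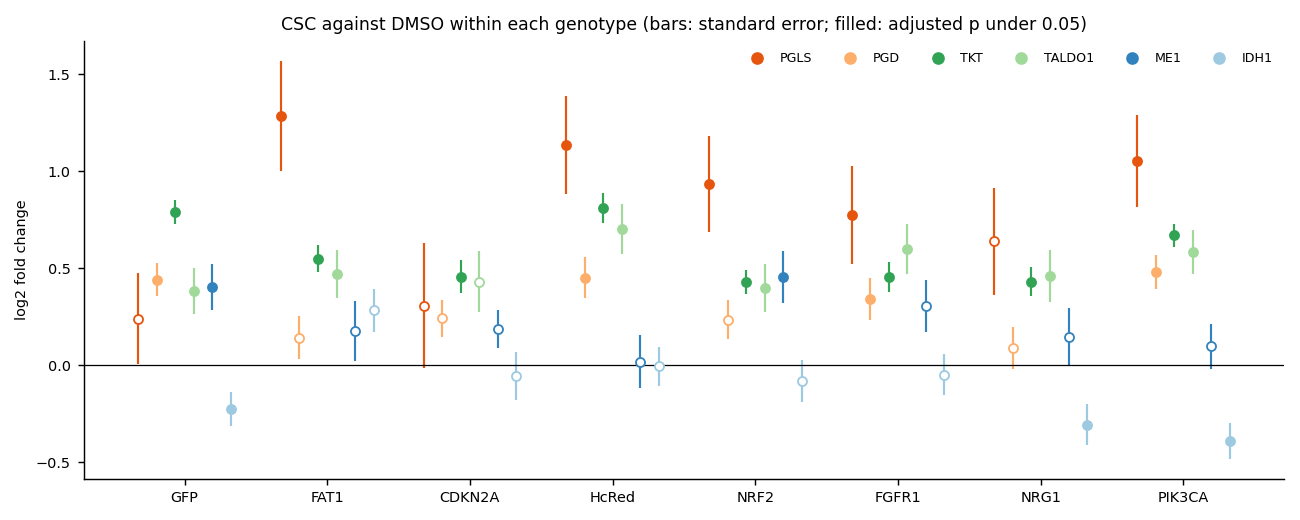
Log2 fold change of each member under CSC against DMSO within each of the 8 genotypes, as counted, with bars for the standard error and filled points for an adjusted p under 0.05. TKT is filled in all 8 genotypes, between 0.43 and 0.81, and PGLS has the longest bars.

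Whether the response to a chemical differed among the 8 genotypes was asked with an F test over the interaction terms. For CSC, TKT (adjusted p = 0.0111) and IDH1 (adjusted p = 0.0242) passed, beside 0.779% of all genes. By edgeR TKT was at 0.0455 and IDH1 at 0.09. The within-line differences of TKT ran from 0.43 to 0.81 and those of IDH1 from -0.39 in PIK3CA to 0.28 in FAT1 cells. This F test was not run with the trend removed or without the libraries over 100 CPM of NRG1. The trend itself differed between lines in DMSO. For BaP (0.327% of all genes) and NNK (0.0695%) no member passed by limma-voom or edgeR, with 2 members at an unadjusted p under 0.05 for each chemical by limma-voom, and 1 and 2 by edgeR.

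The other genes of the pentose phosphate pathway were described from a list of 11, of which 9 were tested. Counts, medians and values against DMSO in this and the following lists are as counted unless trend removal is named. Whether those without a trend-removed value depend on the trend is not shown here. Under CSC 2 of the 9 passed, 1 in each direction, beside 55.1% of all genes, with RPE (ribulose-phosphate epimerase) at -0.33 as counted and 0.01 with the trend removed. Under BaP and under NNK 5 of the 9 passed, 2 and 3 of them higher, beside 51% and 51.8% of all genes. The median over the 9 genes was 0.02 in CSC, -0.07 in BaP and -0.11 in NNK. Between lines in DMSO, 4 of 9 passed in FAT1 cells (26.3% of all genes), with PRPS2 (-1.28) and PRPS1 (-1.05), which make the ribose donor of nucleotide synthesis, lower, as was RPE (-0.61), and SHPK higher (0.69). In CDKN2A cells 5 of 9 passed (37.2% of all genes), with RPE (-0.79) and DERA (-0.69) lower and 3 higher, among them H6PD (0.68) and PRPS1 (0.57). In NRF2 cells in DMSO 0 of 9 passed by limma-voom (7.16% of all genes), edgeR and DESeq2, with 1, 1 and 0 genes at an unadjusted p under 0.05. The median was -0.03.

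Of 10 other genes of NADPH supply, 5 passed in CSC (2 higher), 5 in BaP (3 higher) and 6 in NNK (2 higher), near the 55.1%, 51% and 51.8% of all genes. NADK, the NAD kinase, was at 0.39, 0.45 and 0.23 and IDH2, the mitochondrial relative of IDH1, at 0.32, 0.48 and 0.42. The mitochondrial malic enzyme ME3 passed under BaP alone (0.62) and NADK2 under NNK alone (-0.24). The medians over the 10 were -0.06, -0.08 and -0.03. In FAT1 cells in DMSO 4 of the 10 were called (26.3% of all genes), each lower, led by ALDH1L2 (-0.63) and NNT (-0.56), while in CDKN2A cells ALDH1L2 (-1.28) led 4 calls, 1 of them higher (37.2% of all genes). In NRF2 cells in DMSO there were 0 calls by limma-voom (7.16% of all genes), edgeR and DESeq2 alike, with 4, 4 and 2 genes at an unadjusted p under 0.05. In BaP and NNK (7.25% and 3.91% of all genes) IDH2 was higher (0.52 and 0.78) and MTHFD1L lower (-0.58 and -0.93). Of the 4 NAD-linked relatives of ME1 and IDH1, 2 passed in CSC (55.1% of all genes), IDH3G at 0.42 and ME2 at -0.19, which became 0.10 and 0.04 with the trend removed.

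Among 14 enzymes that use NADPH, 12 passed in CSC (9 higher), 11 in BaP (8 higher) and 10 in NNK (9 higher). Over all genes 55.1%, 51% and 51.8% passed and 28%, 26.1% and 26.1% were called higher, which is also the background of the NRF2 and AhR readout counts against DMSO. The quinone reductase NQO1 was at 1.37, 1.05 and 0.39 and the fatty acid synthase FASN at 0.96, 0.27 and 0.89 in the same order, and FASN under BaP turned to -0.15 with the trend removed. All 8 NRF2 readout genes were higher under CSC and BaP, and all 8 were higher under each of these than under NNK (23.7% of all genes called for CSC and 11.8% for BaP), where 4 passed against DMSO, 3 of them higher. All 4 AhR readout genes were higher under each chemical, CYP1A1 by 5.66, 5.63 and 3.06. The first list shares NQO1 and TXNRD1 with the NRF2 readout genes. Of the members, TKT was higher under CSC and under BaP than under NNK, while PGD was lower under BaP than under NNK and between CSC and NNK gave -0.09 as counted, with an adjusted p of 0.089 by limma-voom, 0.0491 by edgeR and 0.0446 by DESeq2. TALDO1 and ME1 were higher under CSC than under NNK but were not called between BaP and NNK. IDH1 was lower under CSC than under NNK. Whether the members follow the readout genes was not tested.

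Across the 32 combinations TKT, TALDO1 and PGLS varied together. The combination means of TKT and TALDO1 correlated at r = 0.919 (Pearson), those of TKT and PGLS at 0.83 and those of TALDO1 and PGLS at 0.784. PGD and ME1 correlated at 0.57, and ME1 was negatively correlated with TALDO1 (-0.455), IDH1 (-0.429) and TKT (-0.425). These are descriptions over combinations that share libraries, depth and the trend on GC content. Among 10062 genes, TALDO1 was the gene most like TKT, followed by PKP3 (0.895) and PIGT (0.891), and TKT was the gene most like TALDO1, followed by CTSA (0.878) and TPCN1 (0.862). PGLS was most like EVA1B (0.892), PKP3 (0.878) and LOC101927751 (0.831), and the GC content of the EVA1B transcript was 71.6% and that of PKP3 66.7%. ME1 was most like TSC22D2 (0.920), PFN2 (0.912) and PCYT1A (0.907), PGD most like MAN2B2 (0.869), MAST2 (0.866) and MXD4 (0.863), and IDH1 most like MASTL (0.799), HNRNPA3 (0.798) and SEPT2 (0.795).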

How the data were processed

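SFL libraries of 95 AALE samples were single-end reads of 75 bases from a pool of 96 on an Illumina NextSeq 550. The authors trimmed adapters with cutadapt 1.12, checked quality with FastQC 0.11.5, aligned to hg19 with STAR 2.5.2b and ran featureCounts on the RefSeq annotation. The authors deposited the raw counts, 1 whole number per gene and sample, with no normalization. Whether counting used strand is not given in the sources used here, so reads of overlapping antisense genes may be included.

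Groups and replicate numbers came from the sample titles. No 2 libraries were identical, and replicates differed by more than sampling noise (chi-square per degree of freedom 1.14 to 2.82 over 94 pairs). The study names the replicates biological but does not say whether they were separately grown cultures or wells of 1 culture, and p-values measure the spread between them. Samples with the same number did not deviate together (mean r -0.0211 to 0.0666 over 23 comparisons).

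Counts were TMM-scaled and tested with limma-voom (limma 3.58.1, edgeR 4.0.16, R 4.3.3) on genes with a mean count above 1, 2-sided, with Benjamini-Hochberg adjustment over all genes tested and a threshold of 0.05. Each comparison of lines, and of CSC with DMSO within a line, was fitted on its own samples. Chemicals over all genotypes were fitted on 95 samples with genotype as a term. Tried as alternatives were the quasi-likelihood test of edgeR, DESeq2 1.42.0 (Wald test, and size factors), mean count of at least 10 or no filter, a replicate block, all 95 samples in 1 fit, leaving out samples, and removal of each sample's loess trend (span 0.3) on transcript GC content and length, known for 24309 symbols (86.9%). The contrasts between chemicals, the FAT1 and CDKN2A contrasts under chemicals, and the fits without libraries over 100 CPM of NRG1 were chosen after seeing the data. Scripts were tested on simulated data. Counts with few reads, such as those of PGLS, give wide errors at depths of 287446 to 2116383 reads.

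The members and the further gene lists were chosen with earlier results of these data known. By the naming rule all 6 members were named in each comparison, from each further list only genes past the threshold, largest first and at most 6 (1 gene counted in these lists is not reported here), and for each member the 3 genes with the highest Pearson r over the 32 combination means among genes whose mean count reached 10. Promoter sequences and gene spans come from RefSeq (GRCh38.p14) and the GRCh37 annotation.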

Additional observations from a re-analysis of the deposited data

Results flagged for a closer look

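The response of 2 members to CSC differed between the 8 genotypes by a test of the difference itself, the F test over the interaction terms (limma-voom, adjusted over all genes). The adjusted p was 0.0111 for TKT and 0.0242 for IDH1. TKT was higher under CSC in every line, by 0.43 (NRF2 and NRG1 cells) to 0.81 (HcRed cells) on the log2 scale. IDH1 ran from -0.39 in PIK3CA cells to 0.28 in FAT1 cells, where its 3 CSC samples were at 184, 176 and 179 CPM and its DMSO samples at 162, 140 and 156. By edgeR the adjusted p was 0.0455 for TKT and 0.09 for IDH1. The F test was not run with the GC and length trend removed. The trend on GC content in DMSO differed between lines, for example -0.387 to -0.301 in GFP and -0.16 to -0.0914 in NRF2 cells, and its part was not tested. Groups of 3 samples were too small for a search for single outlying samples.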

How the results depend on the processing

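Over 83 member results past the threshold and 1149 alternative fits, 1022 kept the direction and the call, 125 lost the call and 2 changed sign. The sign changed for IDH1 under CSC with the GC and length trend removed, to 0.0724 over all genotypes and to 0.0092 in GFP cells. DESeq2's Wald test lost 21 of the 83 calls, the trend removal 17, edgeR 2 and the replicate block 2; the cause was not tested. The members called changed by over 1.5 times in these comparisons. With DESeq2 they went from 2 to 1 for NRF2 in DMSO, 1 to 0 for NRF2 in NNK, 2 to 1 for FAT1 in NNK, and under CSC from 5 to 2 in GFP, 4 to 1 in NRF2, 4 to 1 in FGFR1 and 3 to 1 in NRG1. With the trend removed they went from 2 to 1 for NRF2 in DMSO, 0 to 1 for NRF2 in CSC, 3 to 5 for CDKN2A in BaP, and under CSC from 5 to 3 in GFP, 1 to 2 in CDKN2A, 4 to 2 in NRF2, 4 to 1 in FGFR1 and 3 to 0 in NRG1. The share of all genes called was then 6.03% for NRF2 in DMSO, 5.3% for NRF2 in CSC and 31.6% for CDKN2A in BaP. The shares under CSC within lines are given above. Without a filter FGFR1 in DMSO went from 0 to 1 and CSC in FGFR1 from 4 to 2. With a mean count of at least 10, CSC in CDKN2A went from 1 to 3 and CSC against BaP from 1 to 2. DESeq2 size factors moved CSC in CDKN2A to 2. Averaging the 8 within-genotype contrasts moved CSC against BaP to 2, leaving out libraries under 500000 reads moved BaP against NNK from 2 to 1, and edgeR moved the genotype by CSC interaction from 2 to 1. Without the NRG1-bearing libraries CSC in NRF2 and in FGFR1 each went from 4 to 2, with 1 sample left in an arm.

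The replicate numbers do not pair the samples. Fitted with a replicate block, the members called went from 3 to 5 for FAT1 in DMSO, 0 to 1 for FGFR1 in DMSO and 0 to 1 for the NRF2 by CSC interaction. All other counts stayed within 1.5 times.

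Leaving out 1 sample gave 2 to 4 members called for FAT1, 3 to 4 for CDKN2A, 1 to 2 for NRF2, 0 to 1 for FGFR1 and 0 for NRG1 and PIK3CA in DMSO. It gave 0 to 2, 2 and 0 to 1 for NRF2 in CSC, BaP and NNK, 2 to 3, 2 to 3 and 2 for FAT1, and 3, 3 and 4 to 5 for CDKN2A. Under CSC it gave 2 to 5 in GFP, 3 in FAT1, 1 to 2 in CDKN2A, 4 in HcRed, 2 to 4 in NRF2 and in FGFR1, 1 to 3 in NRG1 and 5 in PIK3CA, and 0 to 1 for the interaction. Leaving out 1 replicate number over all genotypes gave 5 to 6 for CSC, 4 to 5 for BaP, 4 for NNK, 0 to 1 for CSC against BaP, 3 to 4 for CSC against NNK and 1 to 2 for BaP against NNK.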
